A study of Homo sapiens with 6 samples.

Results

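The long arm of chromosome 19 was followed here as a group of 189 protein-coding genes, out of 32434 gene IDs in the deposited table. A gene was a member if it started beyond 27 Mb on chromosome 19 (hg38, GENCODE 29) and averaged at least 3 FPKM (fragments per kilobase of exon, scaled to sequencing depth) over the 6 libraries. Zinc finger (ZNF or ZFP), ribosomal protein, respiratory chain, potassium channel and synaptic vesicle genes were left out by the start of their symbols. Genes of these families with other symbols, such as HKR1, ZBTB45 and SDHAF1, stayed in. A further 7 single genes that belong to other gene groups were left out. Of 673 protein-coding genes of the arm in the table, 446 were under 3 FPKM and 227 were at or above it. Of the latter, 38 were left out in these ways. The arm was picked by its fold changes between these same libraries, since its genes rose together, so the differences below describe that choice, carry no test of it, and the counts of members that passed support nothing.

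RNA came from SK-N-BE(2), an established human neuroblastoma cell line, carrying a lentiviral short hairpin against MYT1 (shMYT1, 3 libraries) or a control hairpin (shNC, 3 libraries). Both groups were infected for 24 h and kept in puromycin for 48 h. The labels give a genotype of MYT1 knockout but describe a knockdown, and the level of MYT1, a neuronal zinc finger protein and the target of the hairpin, was 4.198, 4.13 and 4.36 FPKM in shMYT1, against 5.73, 5.12 and 5.18 FPKM in shNC, a ratio of 0.79. The number of hairpins behind shMYT1 is not given in the sources used here, and no label says that replicates were separate cultures. The p-values of the fit therefore measure only the spread between these samples.

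Chromosome 19 is gene-dense and rich in G and C. Its long arm carries no single pathway: it holds enzymes of DNA repair, parts of the splicing and transcription machinery, clathrin adaptor subunits, kinases, neuronal membrane proteins, and large clusters of receptor and protease genes that most cells outside the immune system or glands keep silent. Genes on one arm are neighbours by position, and what they encode is largely unrelated.

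Most of the long-arm genes were higher in shMYT1 cells. Of the 189 members, 150 passed the threshold as higher (limma, Benjamini-Hochberg adjusted p under 0.05), 1 passed as lower and 38 did not pass. Over all 14106 genes tested, 11.9% passed as higher and 12.3% as lower. The median ratio of the shMYT1 mean to the shNC mean was 1.27, with quartiles of 1.18 and 1.37, and the median log2 fold change, on the log2(FPKM + 1) scale used throughout, was 0.31. The same median over all genes tested was -0.005. A ratio of 1.1 to 1.5 was found for 152 members (80.4%), 19 lay between 1.5 and 2, and 1 lay above 2. Only 3 members had a ratio under 1. All 3 shMYT1 libraries lay above all 3 shNC libraries for 162 members and below them for 1 member, where over all genes tested these shares were 20.5% and 21.8%.

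The shift was about equally large in each shMYT1 library. The median member stood 0.29, 0.29 and 0.33 above its own shNC mean (log2 scale) in shMYT1 replicates 1, 2 and 3, against -0.04, -0.02 and 0.05 in shNC replicates 1, 2 and 3. Summed over the 189 genes, the level was 2948, 2951 and 3040 FPKM in shMYT1 and 2283, 2311 and 2454 FPKM in shNC. The groups did not overlap in this sum, and shNC replicate 3 was the highest of its group. Between 183 and 185 of the 189 members were above their shNC mean in each shMYT1 library, while 44, 64 and 166 were above it in shNC replicates 1, 2 and 3. Without shNC replicate 3 the median log2 fold change was 0.33.

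**Figure D1:**
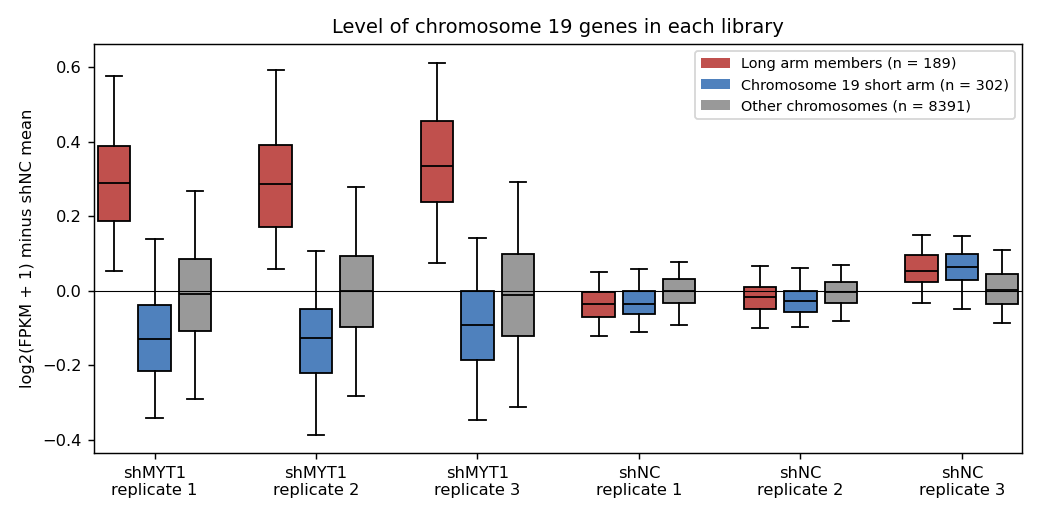
Each box gives log2(FPKM + 1) minus the gene's shNC mean in 1 library, for the 189 long-arm members (red), 302 short-arm genes (blue) and 8391 genes of other chromosomes (grey), all protein-coding at 3 FPKM or more; boxes span the quartiles, the line is the median and whiskers reach the 5th and 95th percentiles. Long-arm medians are 0.29, 0.29 and 0.33 in shMYT1, and both arms stand above 0 in shNC replicate 3.

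Library shNC replicate 3 stood above the other controls on both arms of the chromosome, and so did genes elsewhere with a like base composition. Short-arm genes stood at 0.06 above the shNC mean in that library, against -0.03 in both shNC replicates 1 and 2. The median G and C content of transcripts was 60.3% for the long-arm members, 61.1% for the short-arm genes and 49.1% for genes of other chromosomes. The 1230 genes of other chromosomes within the members' quartiles of G and C content stood at 0.06 in shNC replicate 3, at -0.03 in shNC replicates 1 and 2, and at 0.05, 0.03 and 0.09 in shMYT1 replicates 1, 2 and 3. Their median log2 fold change was 0.06, with 238 (19.35%) higher and 84 lower, against 0.31 in the long-arm members. All 8391 genes of other chromosomes had a median of -0.007, with 1084 (12.9%) higher and 1257 lower. The 115 short-arm genes of like composition had a median of -0.10, with 2 (1.74%) higher and 35 lower. Over all genes tested, 11.9% passed as higher and 12.3% as lower. The part of base composition in the long-arm values was not tested.

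Along the arm, every stretch was higher, and the genes nearest the centromere were the least raised. The 3 members that start between 25 and 30 Mb had a median fold change of 0.20 on the log2 scale, and the 13 between 30 and 35 Mb had 0.23. Between 35 and 40 Mb the median of 36 members was 0.28. It was 0.34 for the 31 members between 40 and 45 Mb and 0.34 for the 74 between 45 and 50 Mb, and 0.31 for both the 17 members between 50 and 55 Mb and the 15 beyond 55 Mb. In all 181 windows of 9 neighbouring members the median was above 0. The lowest window, 0.19, ran from POP4 to CEBPG (29.6 to 33.4 Mb), and the highest, 0.45, from CCDC9 to SELENOW (47.3 to 47.8 Mb). Transcript G and C content in the lowest window was 51.7, 56.3, 43.0, 42.4, 44.1, 49.8, 49.0, 65.9 and 41.9% in gene order. Its median over all members was 60.3%. Position and base composition thus go together near the centromere, and the part of either was not tested. Whether these steps along the arm exceed what single genes vary by was not tested.

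The change of sign fell between the last short-arm gene of this level, which starts at 24.0 Mb, and POP4, the first long-arm member, at 29.6 Mb. On the short arm, 302 protein-coding genes of at least 3 FPKM showed a median log2 fold change of -0.11, with 10 (3.31%) higher and 100 lower. Over all genes tested these shares were 11.9% and 12.3%. The 11 short-arm genes that start between 20 and 25 Mb had a median of -0.26. POP4, which encodes a protein subunit of ribonuclease P, was at 4.31, 4.04 and 4.15 FPKM in shMYT1, against 3.37, 3.19 and 3.55 FPKM in shNC, and it passed as higher except without shMYT1 replicate 1, shNC replicate 1 or shNC replicate 2. C19orf12, the next member, averaged 4.74 ± 0.24 FPKM in shMYT1 and 4.43 ± 0.19 FPKM in shNC (SD, n = 3 each), with overlapping groups. URI1, an unconventional prefoldin, rose to 17.6 ± 0.43 FPKM in shMYT1, against 15.1 ± 0.39 FPKM in shNC (SD, n = 3 each). At the far end, the neighbours TRIM28, CHMP2A and UBE2M start within 58.54 to 58.56 Mb and all rose.

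**Figure D2:**
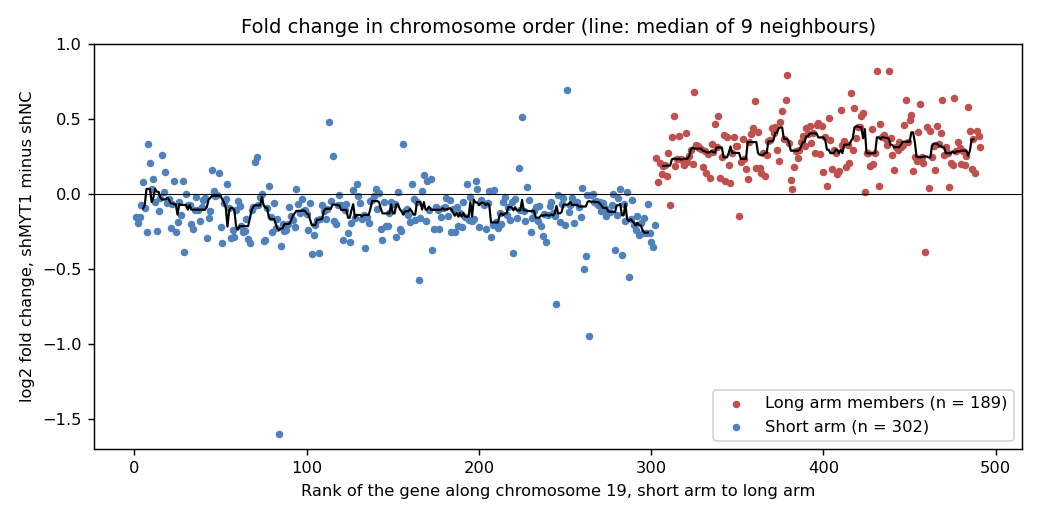
Each point is the log2 fold change (shMYT1 minus shNC) of 1 protein-coding gene of at least 3 FPKM, placed by its rank along chromosome 19 from the short-arm end, with the long-arm members in red and the short-arm genes in blue; black lines are medians of 9 neighbours. The line lies below or near 0 on the short arm, where the median is -0.11, and above 0 throughout the long arm, where it is 0.31.

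Members varied around their shared shift about as widely as genes elsewhere vary around none. The quartiles of the members' log2 fold changes lay 0.20 apart, and those of 8391 genes of other chromosomes 0.18 apart. Level made little difference to the ratio: its median was 1.26, 1.31, 1.27 and 1.26 in 4 equal classes of mean FPKM from low to high. The number that passed as higher went up with level all the same, from 31 of 48 in the lowest class through 34 of 47 and 40 of 47 to 45 of 47 in the highest. The share that passed thus followed level while the ratio did not.

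**Figure D3:**
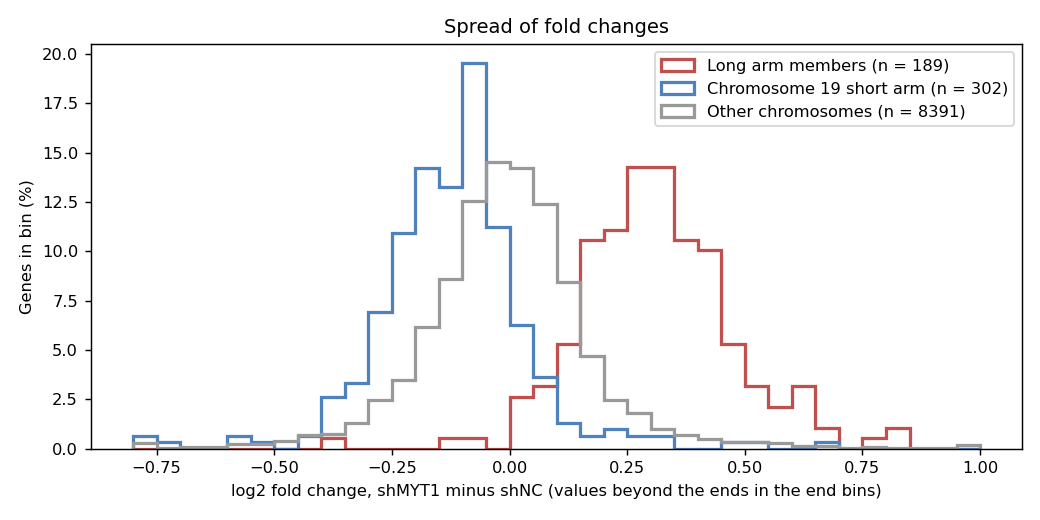
The share of genes (%) in each bin of 0.05 of log2 fold change (shMYT1 minus shNC) is drawn for the long-arm members (red), the short-arm genes (blue) and genes of other chromosomes (grey). The 3 outlines have medians of 0.31, -0.11 and -0.01, and the quartiles lie 0.20 apart in the red and 0.18 apart in the grey outline; values beyond the ends are in the end bins.

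A few members lay well above the rest of the arm. TEAD2 (chr19:49340595-49362457, minus strand), a transcription factor that acts with YAP and TAZ, was at 24.6, 23.0 and 26.9 FPKM in shMYT1, against 12.5, 13.7 and 14.7 FPKM in shNC. The lowest shMYT1 library was above the highest shNC library, with a ratio of means of 1.82. Part of its exons overlaps CD37 on the opposite strand. APLP1 (chr19:35867899-35879791, plus strand), a neuronal relative of the amyloid precursor protein, was at 18.7, 19.7 and 20.2 FPKM in shMYT1, against 10.9, 11.97 and 12.6 FPKM in shNC, a ratio of 1.65. Its exons overlap NPHS1 on the opposite strand. In both TEAD2 and APLP1 the 2 groups stood far apart compared with the spread inside them. Both are shown here for large log2 fold changes between these same libraries, so this separation is no support for them. PLEKHA4, named after its values were seen, had the highest ratio of all members, 2.01, with 6.26, 6.23 and 6.21 FPKM in shMYT1, against 3.10, 2.78 and 3.42 FPKM in shNC.

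Further members of at least 5 FPKM among those with the largest log2 fold changes had ratios between 1.59 and 1.67. LENG8 rose to 30.3 ± 1.4 FPKM in shMYT1, against 19.05 ± 0.12 FPKM in shNC (SD, n = 3 each). CACNG7, a neuronal accessory subunit of calcium channels and AMPA receptors, rose to 9.33 ± 0.20 FPKM in shMYT1, against 5.69 ± 0.58 FPKM in shNC (SD, n = 3 each). TMEM145, a transmembrane protein gene, was at 12.8 ± 0.63 FPKM in shMYT1 and 7.95 ± 0.82 FPKM in shNC (SD, n = 3 each). LTBP4, a matrix protein that binds latent TGF-beta, rose to 6.37 ± 0.16 FPKM in shMYT1, against 3.81 ± 0.27 FPKM in shNC (SD, n = 3 each). For each of these 4 genes the groups were apart, which their choice by fold change in these libraries makes likely beforehand.

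At the other extreme, ATF5 was the 1 member that passed as lower, and it is named for that after its values were seen. ATF5 (chr19:49928702-49933935, plus strand), a bZIP transcription factor of the cellular stress response, was at 3.73, 4.06 and 3.77 FPKM in shMYT1, against 4.82, 5.21 and 6.10 FPKM in shNC, with no overlap and a ratio of 0.72. It shares exon bases with IL4I1, MIR4751 and NUP62, so fragments there cannot be assigned with certainty. CEBPG, a C/EBP partner of ATF4, was at 10.3, 11.8 and 11.5 FPKM in shMYT1, against 12.3, 11.6 and 11.6 FPKM in shNC. PPP1R15A, which encodes the stress-induced phosphatase subunit GADD34, was at 11.3, 11.7 and 10.7 FPKM in shMYT1, against 10.2, 10.6 and 11.6 FPKM in shNC. Neither CEBPG nor PPP1R15A passed, and their groups overlap.

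DLL3, an inhibitory Notch ligand of neuroendocrine cells, was at 4.75, 4.80 and 5.57 FPKM in shMYT1, against 5.16, 5.91 and 5.96 FPKM in shNC, a ratio of 0.89 with overlapping groups. Among members of at least 5 FPKM, the 8 smallest log2 fold changes other than those of DLL3 and CEBPG were positive and did not pass. PAF1, a subunit of the polymerase-associated factor complex, averaged 16.2 ± 0.40 FPKM in shMYT1 and 15.3 ± 0.75 FPKM in shNC (SD, n = 3 each). JOSD2, PNMA8A, FBXO17 and TTC9B had ratios between 1.03 and 1.08, all with overlapping groups. JOSD2, at a ratio of 1.03, had a log2 fold change of 0.04 that turned to -0.030 without shMYT1 replicate 1.

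**Figure D4:**
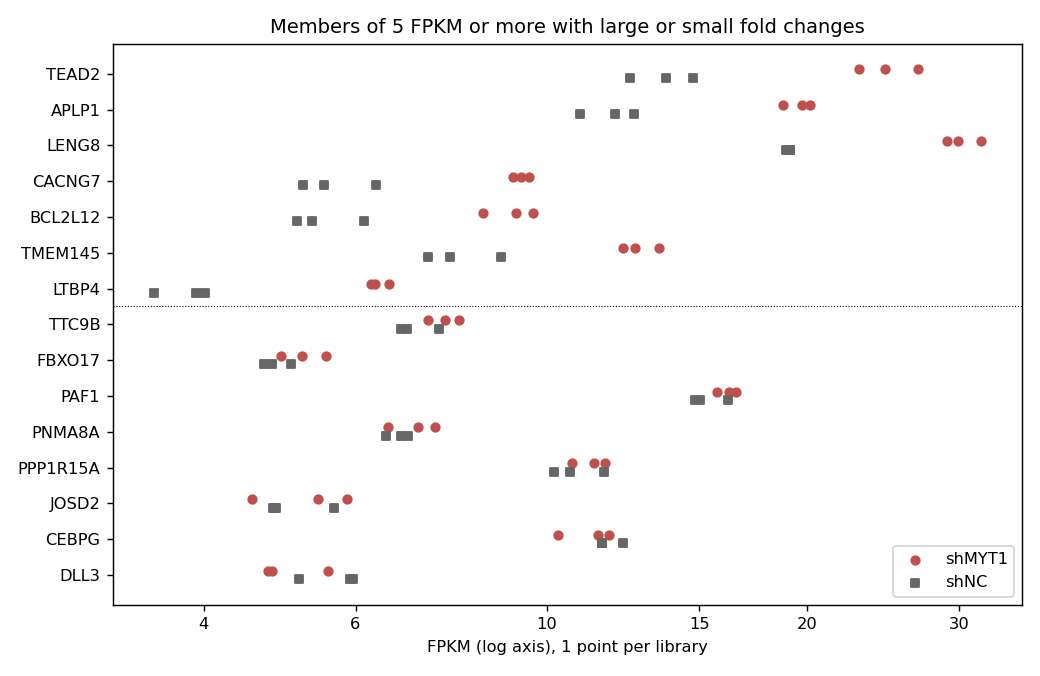
FPKM (log axis) in each of the 3 shMYT1 (red circles) and 3 shNC (grey squares) libraries is drawn for 7 members of at least 5 FPKM among those with the 8 largest (above the dotted line) and the members with the 8 smallest log2 fold changes. In the upper 7 the groups are apart, as for TEAD2 at 23.0 to 26.9 FPKM in shMYT1 and 12.5 to 14.7 FPKM in shNC, and in the lower 8 they overlap. The genes were chosen by these fold changes, so neither pattern is a test.

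Promoter sequences are shown for 2 members at the top of this range and 2 at the bottom, since members that move together can be compared by the letters near their starts. Each runs from 250 bases before to 50 after the start (RefSeq, GRCh38.p14): TEAD2 at chr19:49362367-49362666 on the minus strand, APLP1 at chr19:35868324-35868623, ATF5 at chr19:49928656-49928955 and CEBPG at chr19:33373459-33373758, these 3 on the plus strand. Capitals mark every match, on either strand, to 6 motifs: GGGCGG is the GC box, CCAAT the CCAAT box, TATAAA the TATA box, CACGTG an E-box, TGACGTCA the cAMP response element and AAAGTTT the core letters bound by MYT1 family zinc fingers.
TEAD2: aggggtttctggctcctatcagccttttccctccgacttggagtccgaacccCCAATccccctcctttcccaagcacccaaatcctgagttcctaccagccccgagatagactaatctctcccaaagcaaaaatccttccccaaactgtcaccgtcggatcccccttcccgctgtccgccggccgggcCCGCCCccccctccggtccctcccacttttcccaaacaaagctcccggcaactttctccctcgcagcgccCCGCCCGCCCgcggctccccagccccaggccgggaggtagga
APLP1: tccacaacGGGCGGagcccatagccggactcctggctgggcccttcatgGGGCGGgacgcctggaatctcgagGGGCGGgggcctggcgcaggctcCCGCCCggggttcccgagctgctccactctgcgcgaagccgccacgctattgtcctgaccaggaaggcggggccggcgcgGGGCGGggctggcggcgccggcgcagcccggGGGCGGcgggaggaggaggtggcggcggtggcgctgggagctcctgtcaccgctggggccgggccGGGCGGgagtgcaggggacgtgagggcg
ATF5: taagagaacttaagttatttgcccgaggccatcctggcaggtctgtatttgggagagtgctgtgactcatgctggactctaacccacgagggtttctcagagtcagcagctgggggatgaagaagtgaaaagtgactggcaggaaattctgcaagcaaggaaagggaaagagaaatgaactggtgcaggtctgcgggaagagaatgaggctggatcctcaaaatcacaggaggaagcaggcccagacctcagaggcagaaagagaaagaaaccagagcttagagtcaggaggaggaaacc
CEBPG: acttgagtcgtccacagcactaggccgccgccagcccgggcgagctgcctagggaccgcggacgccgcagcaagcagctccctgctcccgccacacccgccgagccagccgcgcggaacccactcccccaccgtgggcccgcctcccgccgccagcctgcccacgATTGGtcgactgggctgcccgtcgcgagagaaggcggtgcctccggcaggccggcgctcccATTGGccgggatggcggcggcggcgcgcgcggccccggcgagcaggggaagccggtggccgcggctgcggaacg

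The TEAD2 window held 3 matches to GGGCGG, 2 of which overlap, and 1 to CCAAT, the APLP1 window 7 to GGGCGG, the CEBPG window 2 to CCAAT and the ATF5 window none of the 6. Of the 189 members, 157 were found in the promoter table. GGGCGG stood in 77.1% of their windows, against 58.5% of 15842 protein-coding promoters, where the median G and C content was 65.7% and 62.7%. CCAAT stood in 43.3% of members' windows against 36.4% of all, TGACGTCA in 7.01% against 2.59%, and CACGTG in 8.92% against 8.88%. TATAAA (2.55% against 9.63%) and AAAGTTT (3 of 157 windows, 1.91%, against 3.56%) were rarer in members. Members average at least 3 FPKM, while the 15842 promoters include genes of any level. No set of promoters matched for level was compared, so these shares cannot be read as a trait of the arm. These are descriptions of the letters in the windows and were not tested.

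By function, 142 members fell into at least 1 of 16 lists of long-arm genes, written with earlier results of these data known, and 47 into none. Within each list, members are named from the 3 of highest level, except ATF5, PNMA8A, FCGRT and UBE2M. PNMA8A was named for its small fold change and ATF5 after its values were seen. FCGRT was named for the immune receptor list and UBE2M for its place near the end of the arm. In the counts of these lists, rose and fell stand for passed as higher and passed as lower. Most members that did not pass had positive fold changes too. In each of the 14 lists with 3 or more members, more members passed as higher than did not, and the medians of log2 fold change lay between 0.27 and 0.41. The median of all members, 0.31, lies between these values, and the lists were not tested against each other. Over all members 79.4% passed as higher, and over all genes tested 11.9%. The arm was picked for its rise, so the count of a list is no result about its function.

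All 4 DNA repair members rose, with a median of 0.41. ERCC1, which with its partner XPF cuts damaged DNA in nucleotide excision repair, was at 6.73, 7.19 and 7.08 FPKM in shMYT1, against 4.40, 5.11 and 5.03 FPKM in shNC. XRCC1, a scaffold of single-strand break repair, rose to 7.90 ± 0.56 FPKM in shMYT1, against 6.01 ± 0.33 FPKM in shNC (SD, n = 3 each).

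Of 16 membrane traffic members, 15 rose, with a median of 0.41. AP2S1, the small subunit of the AP-2 clathrin adaptor, was at 28.1, 30.5 and 30.4 FPKM in shMYT1, against 18.96, 19.6 and 20.7 FPKM in shNC, a ratio of 1.501. KDELR1, which returns escaped proteins to the endoplasmic reticulum, rose to 38.5 ± 0.78 FPKM in shMYT1, against 31.8 ± 1.3 FPKM in shNC (SD, n = 3 each). RABAC1, a Rab acceptor protein, rose to 31.1 ± 1.2 FPKM in shMYT1, against 22.7 ± 0.52 FPKM in shNC (SD, n = 3 each). FCGRT, the neonatal Fc receptor, did not pass, with 5.34 ± 0.21 FPKM in shMYT1 and 4.69 ± 0.43 FPKM in shNC (SD, n = 3 each), and it was also the single member of the immune receptor list.

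Of 18 splicing and RNA processing members, 16 rose and none fell, with a median of 0.27. SNRPD2, a core Sm protein of spliceosomal particles, was at 92.4, 95.3 and 89.7 FPKM in shMYT1, against 75.3, 76.9 and 76.9 FPKM in shNC. SNRNP70, the U1-specific protein, rose to 63.0 ± 0.70 FPKM in shMYT1, against 48.7 ± 2.1 FPKM in shNC (SD, n = 3 each). U2AF2, which binds the polypyrimidine tract, rose less, to 58.4 ± 2.0 FPKM in shMYT1, against 52.0 ± 2.9 FPKM in shNC (SD, n = 3 each). The U2AF2 call was lost without any 1 of the libraries other than shNC replicate 3. Among 5 members of ribosome biogenesis and translation, 4 rose. Fibrillarin (FBL), the methyltransferase of box C/D particles and the member of highest level, was at 111, 114 and 114 FPKM in shMYT1, against 86.7, 86.2 and 89.8 FPKM in shNC. NOP53, a ribosome assembly factor whose exons hold SNORD23, had a ratio of 1.44 and EIF3K, an initiation factor subunit, 1.40.

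Chromatin and transcription members rose in 15 of 19 cases, with a median of 0.27, and none fell. TRIM28, the corepressor of KRAB zinc finger proteins, was at 68.6, 68.6 and 72.6 FPKM in shMYT1, against 51.5, 49.99 and 54.4 FPKM in shNC. PRMT1, the main asymmetric arginine methyltransferase, rose to 61.3 ± 1.6 FPKM in shMYT1, against 48.0 ± 2.1 FPKM in shNC (SD, n = 3 each). RUVBL2, an ATPase of remodelling complexes, rose by a ratio of 1.33. Of 12 transcription factors and cofactors, 7 rose and 1, ATF5, fell. ERF, an ETS repressor, rose to 29.4 ± 0.76 FPKM in shMYT1, against 20.9 ± 1.6 FPKM in shNC (SD, n = 3 each), and USF2, an E-box factor, had a ratio of 1.16. The USF2 call was lost without shMYT1 replicate 1 or 3 or shNC replicate 1 or 2, and also with all libraries when no level filter was used.

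Neuronal and synaptic members rose in 9 of 13 cases, with a median of 0.36. APLP1, described above, was among them. BRSK1, a kinase of neuronal polarity, rose to 9.94 ± 0.11 FPKM in shMYT1, against 8.51 ± 0.24 FPKM in shNC (SD, n = 3 each). PNMA8A, a paraneoplastic antigen family gene, did not pass at 7.02 ± 0.44 FPKM in shMYT1 and 6.73 ± 0.20 FPKM in shNC (SD, n = 3 each). Of the 36 long-arm genes on this list in the table, 17 were under 1 FPKM and not tested.

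Among 17 kinases and phosphatase subunits, 14 rose. PPP2R1A, the scaffold of protein phosphatase 2A, rose to 28.2 ± 0.95 FPKM in shMYT1, against 22.1 ± 0.74 FPKM in shNC (SD, n = 3 each). PPP5C, a phosphatase of the HSP90 machinery, had a ratio of 1.32 and STRN4, a striatin, 1.22. The STRN4 call was lost without shMYT1 replicate 1 or 3. Cytoskeleton and adhesion members rose in 13 of 15 cases. ACTN4, an actin crosslinker, had a ratio of 1.252, CAPNS1, the calpain small subunit, 1.23 and TBCB, a tubulin folding cofactor, 1.14. The TBCB call was lost without shMYT1 replicate 2 or 3 or shNC replicate 2.

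Ubiquitin, SUMO and proteasome members rose in 8 of 10 cases. SAE1, a subunit of the SUMO activating enzyme, was at 49.8, 49.2 and 50.3 FPKM in shMYT1, against 39.2, 38.6 and 40.4 FPKM in shNC. UBE2M, the NEDD8 conjugating enzyme, rose by a ratio of 1.246. UBE2S, the chain-extending enzyme of the anaphase-promoting complex, was at 95.6, 97.1 and 99.4 FPKM in shMYT1, against 79.2, 82.3 and 94.4 FPKM in shNC. The groups of UBE2S did not overlap, but shNC replicate 3 stood close to shMYT1, and the gene passed only with that library left out, with the replicate number as a block, with a filter of 5 FPKM or on recovered fragments.

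Metabolic members rose in 8 of 10 cases, with a median of 0.32. GPI, the glycolytic glucose-6-phosphate isomerase, was at 30.3, 29.7 and 31.5 FPKM in shMYT1, against 22.9, 23.1 and 23.3 FPKM in shNC. SLC1A5, the glutamine transporter, rose less, to 41.6 ± 1.1 FPKM in shMYT1, against 37.3 ± 0.97 FPKM in shNC (SD, n = 3 each). The SLC1A5 call was lost without shMYT1 replicate 3 or shNC replicate 1 or 2. All 7 lipid handling members rose. PAFAH1B3, a catalytic subunit of platelet-activating factor acetylhydrolase 1B, had a ratio of 1.30, PLD3, a lysosomal phospholipase D family exonuclease, 1.34 and LRP3, an LDL receptor relative, 1.22. Of 8 mitochondrial members, 7 rose. TMEM160 and TOMM40, the import pore of the outer membrane, had ratios of 1.29 and 1.23, and ECH1, a fatty acid isomerase, 1.48. The TOMM40 call was lost without shMYT1 replicate 1 or 3 or shNC replicate 1 or 2.

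All 3 cell death regulators rose. BCL2L12, a BCL2-like protein whose gene shares exon bases with IRF3, was at 9.20, 9.62 and 8.43 FPKM in shMYT1, against 5.34, 5.14 and 6.13 FPKM in shNC, a ratio of 1.64. PDCD5, a regulator of apoptosis near the centromere, had a ratio of 1.14. DEDD2, a death effector domain protein, had a ratio of 1.29, and its call was lost without any 1 library other than shMYT1 replicate 1.

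**Figure D5:**
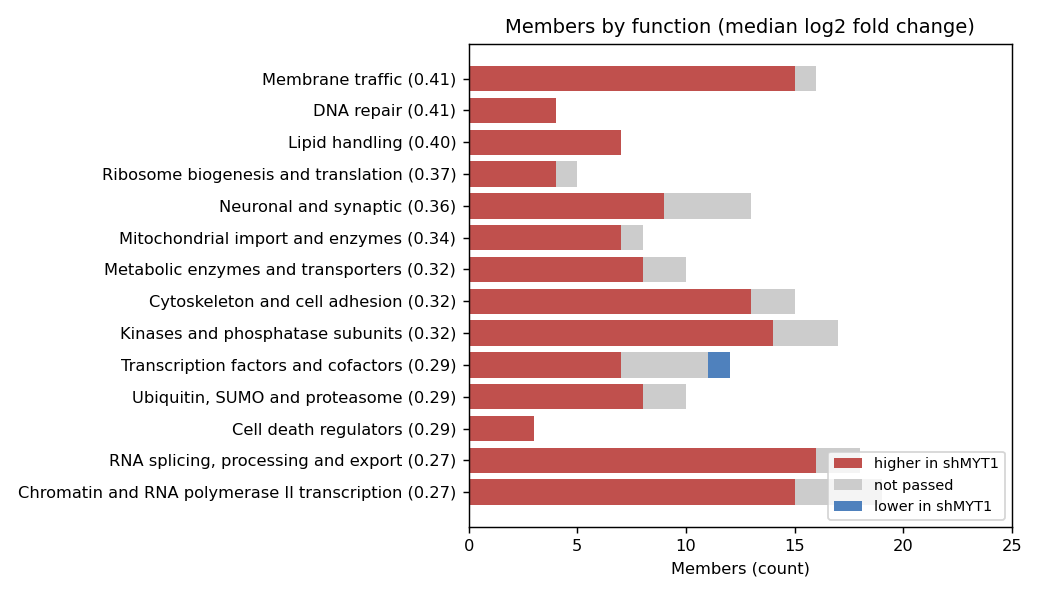
Bars count the members of each functional list with at least 3 members that passed as higher (red), did not pass (grey) or passed as lower (blue) in shMYT1 against shNC, with the median log2 fold change of the list in brackets. Red fills the larger part of each bar, the medians lie between 0.27 and 0.41, and the only blue stands for ATF5.

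Most genes of the arm outside the rule had positive fold changes too, though they lie on the same arm that was picked for its rise. The 20 zinc finger genes with ZNF or ZFP symbols and at least 3 FPKM showed a median log2 fold change of 0.30, with 14 higher and none lower. All 18 of the other dropped genes passed as higher, with a median of 0.41. Between 1 and 3 FPKM there were 157 protein-coding genes, of which 150 had a positive fold change, with a median ratio of 1.24. Of these, 47 (29.9%) passed as higher and none as lower, against 11.9% and 12.3% of all genes tested. The 289 protein-coding genes under 1 FPKM were not tested. Among them 216 had a positive and 73 a negative fold change, with a median ratio of 1.29 and a median log2 fold change of 0.04. Of 53 genes that are not protein-coding and reached 1 FPKM, 46 had a positive fold change and 6 (11.3%) passed as higher, no more than the 11.9% of all genes tested. Just inside the level of 3 FPKM were CTU1, ANKRD27 and TBC1D17, with means of 3.07, 3.19 and 3.20 FPKM and ratios of 1.16, 1.19 and 1.255. Just outside were C19orf47, TGFB1 and DMPK, with means of 2.96, 2.97 and 2.97 FPKM and ratios of 1.27, 1.16 and 1.21.

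The genes examined in the receptor and protease clusters of the arm all averaged under 1 FPKM. The 4 kallikrein genes in the table, KLK14 the highest, averaged at most 0.072 FPKM. The 7 pregnancy-specific glycoprotein genes averaged at most 0.132 FPKM and the 2 leukocyte immunoglobulin-like receptor genes at most 0.649 FPKM. SIGLEC10, the 1 sialic acid binding lectin gene found, averaged 0.150 FPKM. The 2 carcinoembryonic antigen family genes averaged at most 0.683 FPKM, CEACAM19 being the higher. The floor that 3 fragments give on 1 kb of exon was 0.140 to 0.170 FPKM, and lower on longer genes. None of these genes was tested. Of the 13 long-arm genes in the table on the immune receptor and cytokine list, 9 were under 1 FPKM.

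Exon sharing is common on this arm, and no strand setting is given in the sources used here. Exon bases were shared with another gene in 87 members, of which 76 passed as higher and 1 as lower. Of the 102 members that share none, 74 passed as higher and none as lower, with a median log2 fold change of 0.29. Fragments from overlapping genes cannot be told apart.

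The libraries held 18.16 to 20.3 M fragments in shMYT1 and 21.08 to 21.68 M in shNC, recovered from the deposited values. All 12 noradrenergic neuroblastoma markers examined were above 1 FPKM, and their sum was 2743 to 2854 FPKM in shMYT1 and 3146 to 3317 FPKM in shNC. MYCN alone averaged 1725 FPKM over all libraries, so most of this sum is 1 gene and not the set. Summed over 7 fibroblast and smooth muscle markers the level was 118 to 121 FPKM in shMYT1 and 164 to 168 FPKM in shNC. The highest of these 7 was LUM, with a mean of 76.2 FPKM over all libraries. Over 5 glial markers, of which 4 were found, the sum was 2.68 to 3.38 FPKM in shMYT1 and 2.13 to 2.34 FPKM in shNC. The 3 leukocyte markers found summed to 0.830 to 1.22 FPKM in shMYT1 and 0.355 to 0.606 FPKM in shNC, the 3 endothelial ones to 0.244 to 0.282 FPKM in shMYT1 and 0.0771 to 0.132 FPKM in shNC, and the 3 epithelial ones to 1.34 to 1.59 FPKM in shMYT1 and 1.23 to 1.70 FPKM in shNC. No leukocyte or endothelial marker averaged 1 FPKM. In bulk RNA, fewer cells of a type and less RNA per cell cannot be told apart, and the part of these differences in the long-arm values was not tested.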

How the data were processed

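RNA of 3 shMYT1 and 3 shNC samples of SK-N-BE(2) was sequenced. The deposited values are FPKM, in 1 table that holds all libraries. HISAT2 2.0.5, featureCounts 1.5.0-p3 and hg38 are named in the submitters' processing notes, while the annotation, the strand setting and any scaling are not given there. Symbols, types and positions came from GENCODE 29, in which 32301 of 32434 gene IDs were found.

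FPKM multiplied by union exon length gave whole fragments in all 6 libraries, within 0.01 fragments, for 95.4% of the IDs found and for 183 of 189 members. Floors cover counting error only. FPKM were not rescaled.

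Genes averaging 1 FPKM or more were tested on log2(FPKM + 1) with limma 3.58.1 (R 4.3.3), with a variance trend, two-sided, Benjamini-Hochberg adjusted over 14106 genes. The pseudocount of 1 understates changes of low genes. The fit was tested on simulated data.

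The members and lists were chosen with earlier results of these data known. The naming rule took the 3 members of highest level per list, the 8 largest and 8 smallest log2 fold changes at 5 FPKM or more, and the members nearest each limit of the rule; 3 of the genes it takes are not reported here. Other pseudocounts, filters, scalings, variance models, thresholds, memberships and sets of libraries were tried.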

Additional observations from a re-analysis of the deposited data

How the results depend on the processing

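Over the alternatives run, the members' median log2 fold change stayed between 0.27 (rescaled to a common FPKM total) and 0.34 (voom on recovered fragments, chosen after seeing the data, or a pseudocount of 0.1), and moved by less than the spread between replicates. Of 189 members, 115 to 150 passed as higher when 1 library was left out, with medians of 0.29 to 0.33, and 1 passed as lower each time. Over all genes, 2038 to 3048 passed when 1 library was left out, against 3420 with all: 2196 without shMYT1 replicate 1, 2195 without shNC replicate 1 and 2038 without shNC replicate 2. Fewer genes were called at adjusted p under 0.01, where 1494 of all genes, 103 members higher and 0 lower passed. Changes of membership gave 68 higher and 0 lower among the 75 members of at least 10 FPKM, 121 and 0 among the 145 of at least 5 FPKM, and 74 and 0 among the 102 that share no exon bases. With a filter of 5 FPKM in the fit, 128 were higher and 0 lower, since ATF5 was then not tested. In all, 940 of 994 values of single named genes kept their direction and call. The call was lost in 47 of them and gained in 6, and JOSD2 alone changed sign, to -0.030 without shMYT1 replicate 1, with 0.12 without shMYT1 replicate 2. With all libraries kept, 5 named genes lost their call without the level filter and 2 with FPKM rescaled to a common total. Of the losses without the filter, only that of USF2 is given above.

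Replicate numbers were not taken as pairs: deviations of same-numbered libraries correlated at 0.033, 0.013 and 0.043 across genes, each the highest for its library, a hint from the data and not from the design. With the replicate number as a block, 153 members passed as higher, 1 as lower, and 3381 of all genes passed. The recovered depth of 18.16 to 21.68 M fragments left at least 80 fragments per library behind every member but GNG8, which had as few as 14.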
